A study of Mus musculus with 6 samples.

Results

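The genes that encode voltage-gated sodium and calcium channel subunits were followed in 2 populations of neurons sorted from the embryonic mouse cortex. A gene was a member when its symbol was Scn, a number and the letter a or b, or began with Cacna1, Cacna2d, Cacnb or Cacng. This rule, which used no measured value, took 39 of 20367 genes, and all 39 were above 0 in at least 1 library. They were 9 sodium channel alpha genes, 4 sodium channel beta genes, 10 calcium channel alpha1 genes, 4 alpha2delta genes, 4 calcium channel beta genes and 8 gamma genes. Scn2a, a sodium channel alpha gene, is listed under its older symbol Scn2a1, which the rule does not take, and its values are given beside the members.

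Embryos came from a cross of heterozygous Tbr2(Eomes)-GFP with homozygous DCX-mRFP mice of strain C57BL/6J, and all libraries carry both reporters. Tbr2 (Eomes) is a transcription factor of intermediate progenitors, the dividing cells that give rise to cortical projection neurons, and DCX (doublecortin) is a microtubule protein of young neurons. Cells of both colors were called intermediate progenitor cell-derived neurons (here IPN). Red cells without green were called non-IPN and hold the other DCX-positive cells, whatever their origin. The title of the series sets projection neurons beside interneurons. For each population there was 1 library per age, from embryonic day 13.5 (E13.5), 15.5 or 16.5. The E15.5 pair came from 1000000 cells each without amplification, and the 4 libraries at E13.5 and E16.5 from 10000 cells each with an amplified transcriptome. No level at E15.5 was therefore tested against another age. The labels name no separate animals, and with 1 library per population and age there were no replicates within a group. With population and age as factors, p-values therefore rest on how far the population difference changed between ages, the unamplified E15.5 pair included. This spread may be technical in part. In the test of age the populations stand in for replicates. Each age was also 1 pair of libraries, so a change with age cannot be told apart from a difference between sorts.

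A voltage-gated sodium channel is built from 1 large pore-forming alpha subunit, which opens when the membrane is depolarized and carries the upstroke of the action potential, with beta subunits that tune its gating and act as adhesion molecules. In calcium channels the alpha1 subunit forms the pore and sets the current type. L-type channels couple activity to gene expression, P/Q, N and R types drive transmitter release, and T types open near the resting potential. The beta and alpha2delta subunits bring the high-voltage channels to the surface. Several gamma proteins are known as transmembrane AMPA receptor regulatory proteins (TARPs), which traffic glutamate receptors of the AMPA class. In the embryonic cortex some of these genes come on as migrating neurons begin to produce calcium transients and spikes.

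Levels are in CPM, that is, each deposited value divided by the total of its library and multiplied by 1000000. Column totals ran from 12583677 to 32538995, but the deposited values were already scaled, so depth is unknown. The sort was seen in the marker sums: 10 interneuron markers summed to 19.32 to 64.72 CPM in IPN and 1262 to 4630 in non-IPN, with all 10 called lower in IPN and Slc32a1, Dlx5 and Dlx6 at 0 in some IPN library. The sum of 10 projection neuron markers, 7 of them called higher in IPN, was 3714 to 5209 in IPN and 428.7 to 2546 in non-IPN. Eomes itself was at 98.42 to 437.1 CPM in IPN and 72.0 to 214.2 in non-IPN, and its difference did not pass the test (log2 0.79 ± 0.22, limma, adjusted p = 0.101). Non-IPN also held more microglial RNA, with 10 markers at 468.8 to 928.1 CPM against 1.778 to 6.075 in IPN, and more of 8 radial glia markers at each age (607.6 to 4197 against 358.9 to 1177). The non-IPN E13.5 library stood apart, since hemoglobin genes made up 4.92% of it and at most 0.0275% of any other. Markers of endothelial cells (at most 9.119 CPM) and oligodendrocyte precursors (at most 4.212) were near 0. In such bulk samples fewer cells of a type and less RNA per cell cannot be told apart.

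Between the populations, 3 channel genes passed the test. Cacna2d1, the largest alpha2delta gene per kb in 5 of 6 libraries, was 4.31-fold higher in IPN (log2 difference 2.11 ± 0.32, standard error, 3 pairs of libraries). The T-type pore gene Cacna1g was 4.95-fold lower in IPN (-2.31 ± 0.36), and the TARP gene Cacng3 was 21.4-fold lower (-4.42 ± 0.74). The test was limma on log2(value + 1) with age as a factor and adjustment over 19561 genes, at a threshold of 0.05. Of all genes tested, 0.982% were called higher and 2.41% lower in IPN, against 1 and 2 of the 39 channel genes. The median channel gene differed by -0.27 on the log2 scale, with 11 estimates above 0 and 27 below, and the median of all genes was -0.02. A simpler count, of CPM values that fell on the same side at all 3 ages, held 4 channel genes higher in IPN (Cacna1e, Cacna2d1, Cacnb1 and Cacng7), against 9.64% of all genes, and 12 lower, among them Cacna1f, Cacna1g, Cacna1i, Cacna2d3, Cacnb2, Cacnb4, Cacng3, Cacng4, Cacng5 and Scn10a, against 20.8%. Signs can differ on the scale of the test: there Cacnb3 and Scn8a were also above 0 at all 3 ages, and Cacna1f was above 0 at E13.5. Without the E15.5 pair none of the 3 calls held: Cacna2d1 was at 2.02 (adjusted p = 0.17), Cacna1g at -2.67 (adjusted p = 0.163) and Cacng3 at -3.78 (adjusted p = 0.268). In that fit 4 of the 39 channel genes had an unadjusted p under 0.05, against 1663 of 19309 genes tested. Without the E13.5 pair, which holds the library rich in hemoglobin, 5 were called, with Cacna2d2 (-2.12) and Cacna2d3 (-1.88) added. Over all genes that fit called 578 of 18910. On column totals only Cacna1g was still called.

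**Figure D1:**
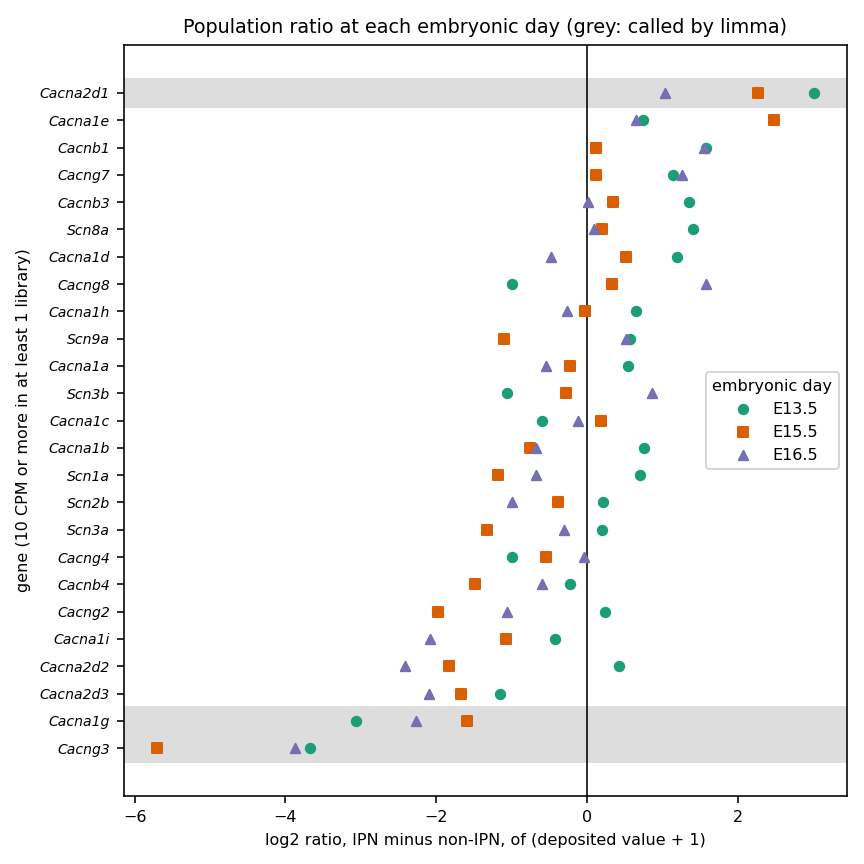
Log2 ratio of IPN to non-IPN (x axis, deposited value + 1) at each embryonic day for the 25 channel genes that reached 10 CPM in a library, ordered by the fitted difference. Each symbol is 1 pair of libraries, grey bands mark genes called by limma. Cacna2d1 lies right of 0 and Cacna1g and Cacng3 left of 0 at all 3 ages, while most other genes change side between ages.

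With age, 8 channel genes rose from E13.5 to E16.5 and none fell by limma (2 were lower at an unadjusted p under 0.05, Cacna1f and Scn11a). They were the calcium channel pore genes Cacna1e (R type), Cacna1b (N type), Cacna1d and Cacna1c (L type) and Cacna1h (T type), the calcium channel beta gene Cacnb4, and the sodium channel genes Scn1a and Scn3b. Of all genes tested, 3.76% rose and 2.26% fell. The median channel gene changed by 0.91 on the log2 scale, with 29 estimates above 0 and 10 below, and the median of all genes was 0.0. Among the 25 channel genes that reached 10 CPM in a library the median was 1.41, and over the 10910 genes of all kinds that did so it was 0.04. This filter also took genes that reached 10 CPM only at a later age, so it is not independent of the change. For the 14 channel genes under 10 CPM in every library the median was -0.63, with 6 estimates above 0 and 8 below. The CPM of both E16.5 libraries lay above both E13.5 libraries for 21 channel genes, against 24.7% of all genes, and below them for 2 (Cacna1f and Scn11a), against 16.1%.

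The 250 bases before the annotated start of each gene were taken from RefSeq (GRCm38.p6) and searched for short motifs on both strands. Promoters of a chromosome that was left out beforehand are in none of the counts or shares below. The median over all promoter windows kept was 52.4% GC. The table held 41 windows for 29 members and Scn2a, of which 15 had a GC box (GGGCGG), against 32.74% of all 32851 windows of this length. The E-box CAGATG lay in 5 of the 41 windows, of 4 members (Cacna1c, Cacna1s, Cacnb2 and Cacnb3), and in 14.44% of all windows. The homeodomain core TAATTA (4.84% of all windows), the cyclic AMP response element TGACGTCA (1.55%) and TTCAGCACC from the repressor element of neuronal genes (0.3%) lay in none of the 41. Members with no entry included Cacna1a, Cacna1g, Cacna1h, Cacna2d4, Cacng1, Cacng4, Scn3a and Scn3b.

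**Figure D2:**
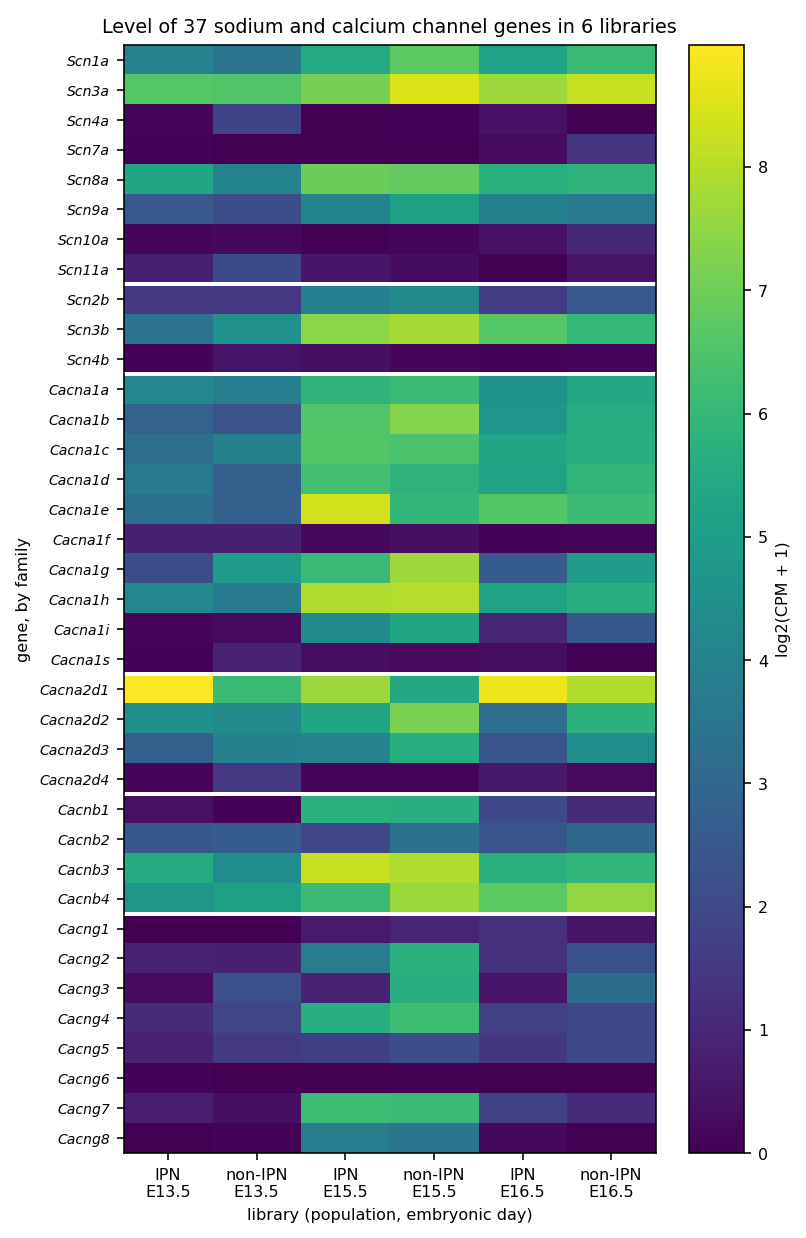
Level of 37 of the 39 genes (rows, by family, white lines between families) in the 6 libraries (columns), as color from 0 to the highest value on the log2(CPM + 1) scale. The E15.5 columns, which were not amplified, are brighter for most calcium channel genes, Scn3a is bright in all 6 columns, and Cacna2d1 is brighter in IPN than in non-IPN at each age.

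Of the 10 calcium channel pore genes, 1 was called between the populations. This T-type gene, Cacna1g, was at 3.167 CPM in IPN against 29.89 in non-IPN on E13.5, 65.52 against 204.1 on E15.5, and 5.198 against 29.48 on E16.5. Non-IPN was higher in every pair, and the fitted difference was -2.31 ± 0.36 on the log2 scale (adjusted p = 0.00567). Cacna1h, another T-type gene, was higher in IPN at E13.5 and in non-IPN later: 17.32 against 12.15 CPM on E13.5, 243.6 against 256.5 on E15.5, and 35.77 against 50.14 on E16.5, with a difference of 0.12 ± 0.27 (adjusted p = 0.874). Cacna1i, the T-type gene with the lowest level per kb, was lower in IPN in each pair (0.1293 and 0.2145, 18.1 and 39.44, then 0.8891 and 4.609 CPM) and did not pass (-1.19 ± 0.71, adjusted p = 0.544). These 3 genes made up 53.5% of the alpha1 level per kb (CPM over the length of the longest coding transcript) in non-IPN against 31.1% in IPN on E13.5, 58.3% against 41.6% on E15.5, and 28.8% against 21.0% on E16.5. The share was larger in non-IPN at each age, and Cacna1g alone held 37.6% in non-IPN at E13.5 against 4.72% in IPN. Interneuron markers were also higher in non-IPN in every pair, and their part in the differences of Cacna1g and Cacng3 was not tested.

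Among the release-type pore genes, the R-type gene Cacna1e leaned to IPN. It was at 8.661 CPM in IPN against 5.72 in non-IPN on E13.5, 331.4 against 61.6 on E15.5, and 94.86 against 70.17 on E16.5. The gap was widest at E15.5, the IPN value was above its pair at each age, and the difference of 1.29 ± 0.36 did not pass (adjusted p = 0.102). Its change with age did: 3.41 ± 0.44 from E13.5 to E16.5 (10.6-fold, adjusted p = 0.00364), with both populations rising by nearly the same amount (3.36 in IPN and 3.45 in non-IPN). The N-type gene Cacna1b went from 6.075 to 24.9 CPM in IPN and from 3.932 to 46.33 in non-IPN, a rise of 2.66 ± 0.44 (adjusted p = 0.00943), and was not called between populations (-0.22 ± 0.36, adjusted p = 0.832). The P/Q-type gene Cacna1a was at 13.08 to 68.65 CPM over the 6 libraries. Its population difference was -0.07 ± 0.31 (adjusted p = 0.943) and its age difference 0.93 ± 0.38 (adjusted p = 0.194). Together these 3 genes held 42.4% of the alpha1 level per kb in IPN against 25.7% in non-IPN on E13.5, 41.1% against 28.8% on E15.5, and 49.5% against 41.6% on E16.5. A share also depends on the other alpha1 genes. In level, only Cacna1e was higher in IPN at all 3 ages. Cacna1a and Cacna1b were higher in IPN on E13.5 and lower on E15.5 and E16.5 (23.87 against 40.53 and 24.9 against 46.33 CPM on E16.5).

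The neuronal L-type genes rose with age. Cacna1c went from 8.531 to 38.85 CPM in IPN and from 14.3 to 49.19 in non-IPN (1.86 ± 0.35, adjusted p = 0.0146). Cacna1d went from 11.7 to 35.5 CPM in IPN and from 5.577 to 57.46 in non-IPN (2.36 ± 0.44, adjusted p = 0.014). No E13.5 value of either gene reached an E16.5 value. Their population differences were -0.18 ± 0.28 (adjusted p = 0.83) and 0.41 ± 0.36 (adjusted p = 0.695). Cacna1h rose by 1.42 ± 0.33 (adjusted p = 0.0322), while Cacna1g was not called (0.23 ± 0.44, adjusted p = 0.798) and Cacna1i did not pass (3.05 ± 0.88, adjusted p = 0.0703). Cacna1s and Cacna1f, the L-type genes of skeletal muscle and retina, were at or below 0.7865 CPM in all 6 libraries. Exons of Cacna1d and Cacna1h share bases with an antisense gene (587 with Chdh and 158 with Tpsg1), and whether the counting used strand is not given in the sources used here.

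**Figure D3:**
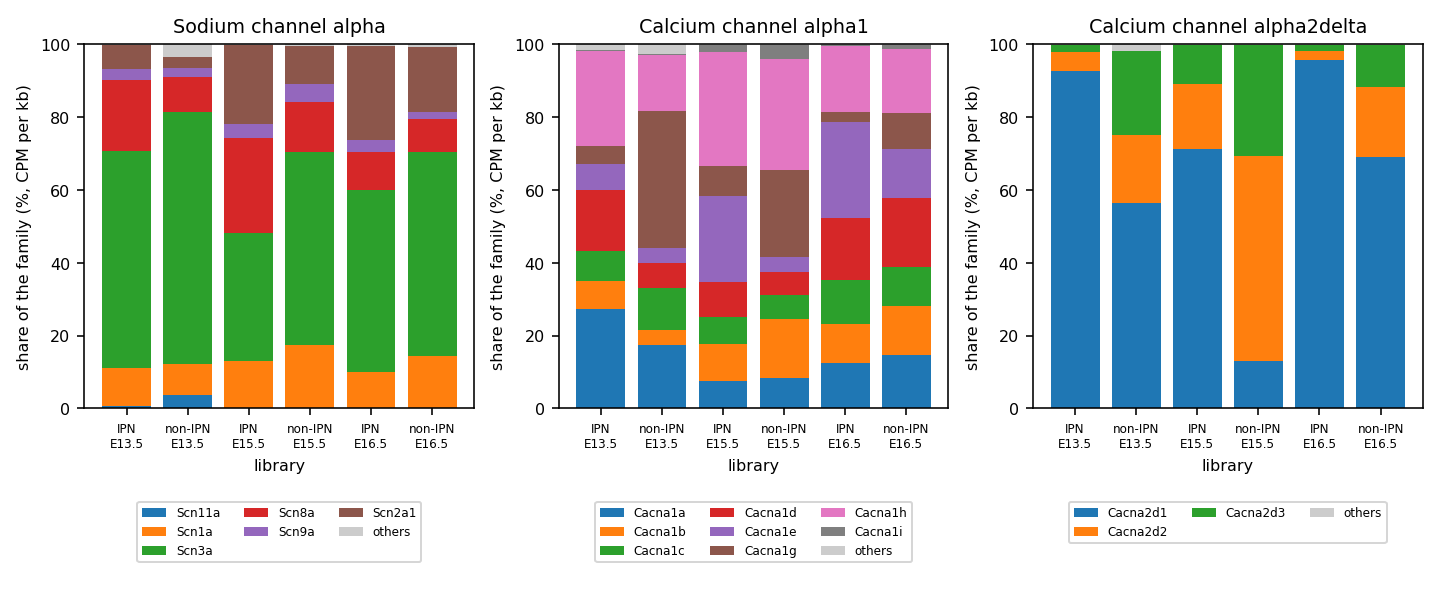
Share of each gene in its family's summed level (y axis, %, from CPM per kb of the longest coding transcript) in the 6 libraries, for sodium channel alpha, calcium channel alpha1 and alpha2delta genes, with genes under 3% in every library in grey. Cacna2d1 holds 71.2 to 95.6% of the alpha2delta level in IPN and 13 to 69.0% in non-IPN, and Scn3a is the largest sodium channel share in every library. The lowest Cacna2d1 share of each population is that of its unamplified E15.5 library.

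The alpha2delta genes, whose products set how many channels reach the axon, held the 1 channel gene called higher in IPN. Cacna2d1, which like Cacna2d2 encodes a binding protein of gabapentin, was at 508.2 CPM in IPN against 69.78 in non-IPN on E13.5, 197.3 against 42.31 on E15.5, and 431.6 against 244.4 on E16.5. IPN was higher in every pair (2.11 ± 0.32, adjusted p = 0.00529), and the log2 ratio was smallest at E16.5 (1.04). Cacna2d2 and Cacna2d3 leaned to non-IPN. Cacna2d3 was at 5.688 against 14.09 CPM on E13.5, 14.94 against 49.42 on E15.5, and 4.035 against 20.26 on E16.5, lower in IPN each time but short of the threshold (-1.64 ± 0.40, adjusted p = 0.0596). Cacna2d4 was at most 1.787 CPM. Per kb, Cacna2d1 made up 92.7%, 71.2% and 95.6% of the family in IPN at the 3 ages, against 56.3%, 13% and 69.0% in non-IPN, where Cacna2d2 led at E15.5 with 56.3%. The E15.5 pair was not amplified, so age and amplification cannot be told apart in these shares. In that pair Cacna2d1 (transcript GC 40.7%) was at 0.382 times its mean amplified level and Cacna2d2 (55.8%) at 3.53 times. Projection neuron markers were also higher in IPN at every age, and their part in the Cacna2d1 difference was not tested.

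Cacna2d2 was the 1 channel gene whose population difference changed with embryonic day. It was at 22.1 CPM in IPN against 18.3 in non-IPN on E13.5, 38.66 against 142.9 on E15.5, and 8.618 against 53.8 on E16.5. IPN was thus slightly above non-IPN at E13.5 and well below it later, with log2 ratios of 0.42, -1.83 and -2.42. The population by day term of limma was -0.97 ± 0.19 per day (adjusted p = 0.0212), and 1.3% of all genes passed this test in either direction. The term has 1 residual degree of freedom, so no library can be left out, and the E13.5 pair includes the non-IPN library with 4.92% hemoglobin. Opposite-strand exon bases are shared with Gm17141 (82 bases). Cacna2d1 (-0.62 ± 0.16, adjusted p = 0.0759) and Scn3b (0.60 ± 0.17, adjusted p = 0.0907) came next and did not pass, but both passed on column totals (-0.63, adjusted p = 0.0135, and 0.56, adjusted p = 0.0368) and under median-of-ratios scaling (-0.60, adjusted p = 0.00171, and 0.62, adjusted p = 0.00502). Their ratios moved in opposite directions: from 3.01 over 2.27 to 1.04 for Cacna2d1, and from -1.06 over -0.28 to 0.86 for Scn3b.

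No calcium channel beta gene was called between the populations, although Cacnb4 was lower in IPN at an unadjusted p under 0.05. Cacnb4 was at 26.24 against 33.89 CPM (IPN against non-IPN) on E13.5, 68.29 against 198.8 on E15.5, and 104.6 against 183.7 on E16.5. Non-IPN was higher at each age without passing (-0.77 ± 0.28, adjusted p = 0.225), and the rise with age passed (2.10 ± 0.34, adjusted p = 0.00827). Its exons share 1170 bases with the opposite-strand gene A430018G15Rik. Cacnb3, at 19.66 to 297.3 CPM, held the largest share of the family per kb in 5 of the 6 libraries (56.2% to 81.6%), and at E16.5 in non-IPN Cacnb4 held 48.4% against its 47.0%. In the unamplified pair Cacnb3 (transcript GC 61.3%) was at 6.11 times its mean amplified level and Cacnb4 (40.5%) at 1.53 times. Cacnb3 changed by 0.58 ± 0.28 between populations (adjusted p = 0.431) and 0.76 ± 0.35 with age (adjusted p = 0.239). Cacnb1 was at 52.64 against 50.28 CPM on E15.5 and at most 2.941 in the amplified libraries, with differences of 1.09 ± 0.69 (adjusted p = 0.565) and 2.89 ± 0.84 (adjusted p = 0.0741). Cacnb2 was at 2.766 to 9.342 CPM.

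The gamma and TARP genes were low in the amplified libraries, where the 8 summed to 3.684 CPM in IPN against 9.152 in non-IPN on E13.5 and to 9.849 against 18.91 on E16.5. At E15.5 the sums were 151.0 in IPN and 259.1 in non-IPN. Cacng3, a TARP of the forebrain, was at 0.1939 CPM in IPN against 3.575 in non-IPN on E13.5, 0.8605 against 48.46 on E15.5, and 0.4104 against 8.106 on E16.5. It stayed under 1 CPM in all IPN libraries and was higher in non-IPN in every pair (-4.42 ± 0.74, adjusted p = 0.00871). Cacng2, known as stargazin, was at 13.09 against 53.18 CPM on E15.5 and at most 3.576 elsewhere (-0.93 ± 0.67, adjusted p = 0.627). Cacng4 was at 48.5 against 72.98 CPM on E15.5 and at most 2.861 elsewhere (-0.53 ± 0.52, adjusted p = 0.746). Cacng7, at 72.99 against 69.63 CPM on E15.5 and at most 2.394 elsewhere, differed by 0.84 ± 0.62 (adjusted p = 0.639), and Cacng8, at 12.82 and 10.59 and at most 0.1368 elsewhere, by 0.30 ± 0.91 (adjusted p = 0.914). With age the adjusted p of these 5 TARP genes was 0.242 to 0.909. Cacng1, Cacng5 and Cacng6 were at or below 3.38 CPM. The AMPA receptor genes that TARPs serve were all called between the populations, Gria1 (-2.95 ± 0.27) and Gria4 (-2.85 ± 0.27) lower in IPN and Gria2 (1.05 ± 0.23) and Gria3 (2.06 ± 0.31) higher. These 4 were named after their values were seen. Of all genes tested, 0.982% were called higher and 2.41% lower in IPN. Without the E15.5 pair 1 of 19309 genes was called higher and 53 lower, so at most 1 of Gria2 and Gria3 kept its call.

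Scn3a, the sodium channel alpha gene known as the main form of the embryonic brain, was the most abundant per kb in every library, with 35.3% to 69.1% of the family, Scn2a1 included. Its level was 96.69 CPM in IPN against 92.95 in non-IPN on E13.5, 140.9 against 364.9 on E15.5, and 205.1 against 296.2 on E16.5. The populations were close at E13.5 and non-IPN was higher later, but neither the population difference (-0.48 ± 0.28, adjusted p = 0.533) nor the age difference (1.26 ± 0.34, adjusted p = 0.0607) passed. Scn1a, the gene of the sodium channel known for fast-spiking interneurons in the mature cortex, was at 14.8 against 10.01 CPM on E13.5, 44.87 against 105.3 on E15.5, and 36.11 against 66.59 on E16.5. It rose with age (1.89 ± 0.45, adjusted p = 0.0362) and was not called between populations (-0.38 ± 0.37, adjusted p = 0.736), being higher in IPN at E13.5 and in non-IPN later. Scn8a, which makes the channel of the mature axon initial segment, was at 15.8 to 124.8 CPM, with differences of 0.57 ± 0.30 (adjusted p = 0.48) and 1.01 ± 0.37 (adjusted p = 0.145). Scn9a was at 3.503 to 34.82 CPM (-0.00 ± 0.48, adjusted p = 1.0, and 1.53 ± 0.59, adjusted p = 0.163), and 180 of its exon bases are shared with the opposite-strand gene Gm13629.

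Scn2a1, outside the rule, showed the steepest rise with age among the sodium channel genes. It went from 9.953 to 98.83 CPM in IPN and from 3.575 to 87.57 in non-IPN (3.83 ± 0.40, 14.2-fold, adjusted p = 0.00136). Per kb its share of the alpha family went from 6.56% to 25.8% in IPN and from 2.84% to 17.7% in non-IPN, and that of Scn3a in non-IPN from 69.1% to 56.0%. Its population difference did not pass (0.76 ± 0.33, adjusted p = 0.338). Scn4a, known from skeletal muscle, Scn7a, and Scn10a and Scn11a, known from sensory neurons, stayed at or below 3.074 CPM in all 6 libraries, while Scn9a, also known from sensory neurons, reached the 34.82 CPM given above.

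Scn3b carried most of the sodium channel beta level, 83.7% to 98.0% per kb. It was at 9.759 CPM in IPN against 22.52 in non-IPN on E13.5, 171.9 against 217.0 on E15.5, and 97.74 against 62.62 on E16.5. The order of the populations was thus reversed at E16.5, the rise with age was larger in IPN (3.23) than in non-IPN (1.32), and the age difference passed (2.28 ± 0.41, adjusted p = 0.0125). Scn2b was at 1.787 to 18.52 CPM (-0.39 ± 0.59, adjusted p = 0.83, and 0.60 ± 0.73, adjusted p = 0.697). Scn4b reached 0.429 CPM. Over both families, 0 of 13 sodium channel genes were called between the populations by limma, 0 had an unadjusted p under 0.05, and 12 of 13 estimates were below 0 (Scn9a among them at -0.00), against 10003 of 19561 over all genes tested.

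**Figure D4:**
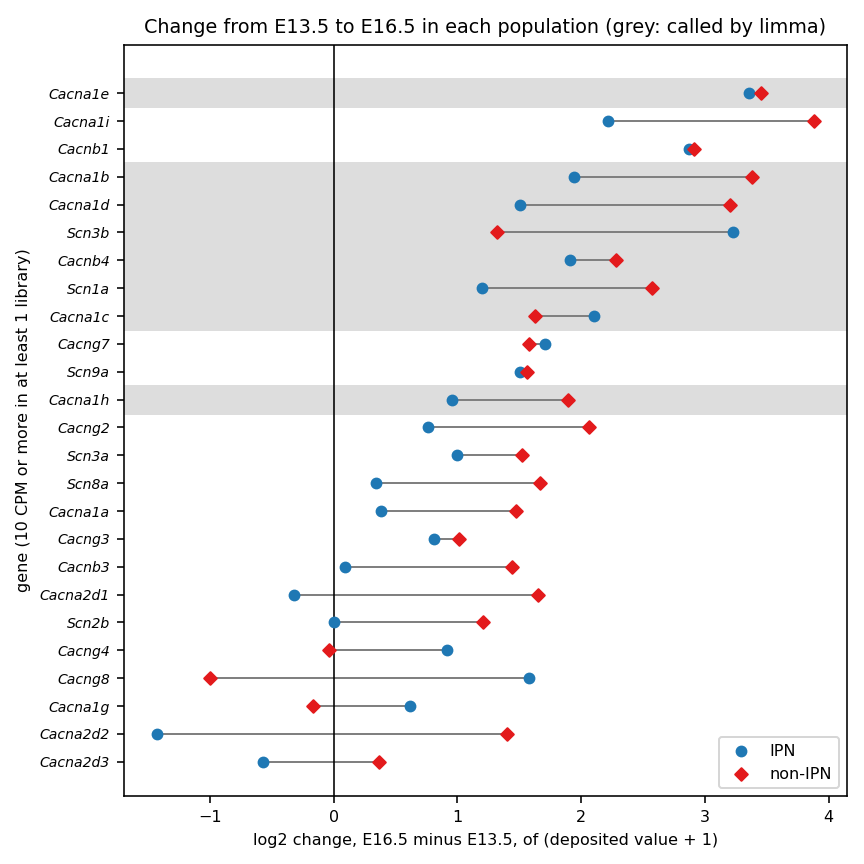
Log2 change from E13.5 to E16.5 (x axis, deposited value + 1) in IPN (circles) and non-IPN (diamonds) for the 25 channel genes that reached 10 CPM in a library, with a line joining the populations and grey bands for genes called by limma. The 8 called genes lie right of 0 in both populations. Cacna2d2, Cacna2d1, Cacna2d3, Cacna1g, Cacng4 and Cacng8 lie on opposite sides of 0 in IPN and non-IPN.

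The 8 genes called with age rose in both populations, but the calls depended on which libraries were included. Of the 8 called genes, 6 rose more in non-IPN than in IPN, and Scn3b and Cacna1c rose more in IPN; the difference in slope was called for none of the 8 (adjusted p 0.0907 to 0.906). Without the non-IPN E13.5 library 5 calls were left (Cacna1b, Cacna1c, Cacna1e, Cacnb4 and Scn3b), and Scn1a was then at 1.07. Without IPN E16.5 there were 3 (Cacna1b, Cacna1d and Cacna1e), with Scn3b at 1.51. Without non-IPN E16.5 there was 1 (Scn3b), and without the E15.5 pair 1 (Cacna1e), with the estimates of the other genes unchanged (Cacna1b 2.66, Cacna1d 2.36, Scn3b 2.28 and Cacnb4 2.10, for example), since that pair enters the residual spread and not the contrast. Without IPN E13.5 there were 13, with Cacna1a, Cacna1i, Cacnb3, Scn3a and Scn8a added. All 8 estimates stayed above 0 in each of these fits. The number of calls over all genes moved the same way as that of the channel genes in each fit. Without the E15.5 pair, for example, it went from 1178 of 19561 to 97 of 19309. The sums of 6 cycling-cell markers went from 996.6 to 423.2 CPM in IPN and from 3148 to 537.1 in non-IPN, those of 8 radial glia markers from 1177 to 533.8 and from 4197 to 1048, and Dcx rose (1.69 ± 0.31, adjusted p = 0.0142). Their part in the age differences was not tested.

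Of 18 listed genes that anchor, modify or accompany sodium channels 16 were measured (Sptbn4 and Sptbn1 were not analysed here), and with age 4 rose and 0 were lower even at an unadjusted p under 0.05: Scn2a1, the ankyrins Ank3 (1.46 ± 0.25, adjusted p = 0.0103) and Ank2 (1.47 ± 0.27, adjusted p = 0.0125), scaffolds that hold channels at the axon initial segment and along the axon, and the ubiquitin ligase Nedd4l (1.85 ± 0.26, adjusted p = 0.00488), which removes channels from the surface. The list median with age was 0.94, against 0.0 over all genes tested, of which 3.76% rose. Between the populations Nfasc, an adhesion molecule of the initial segment, was higher in IPN (1.76 ± 0.31, adjusted p = 0.0102), at 150.0 against 25.95 CPM on E13.5, 711.9 against 223.2 on E15.5, and 145.2 against 91.79 on E16.5. Fgf13, an intracellular factor that binds sodium channel tails, was lower (-1.22 ± 0.29, adjusted p = 0.0494), at 57.78 and 85.94, 46.31 and 180.5, then 52.25 and 153.5 CPM. Over all genes tested, the shares called were 0.982% higher and 2.41% lower in IPN. Without the E15.5 pair they were 1 and 53 of 19309 genes.

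Of 20 partners and regulators of calcium channels, none was called between the populations by limma. At an unadjusted p under 0.05 there were 6, against 2665 of 19561 genes tested. With age 4 rose, against 3.76% of all genes tested, and 0 were lower at an unadjusted p under 0.05. They were Rims1 (4.48 ± 0.71, adjusted p = 0.00775), a scaffold that ties channels to synaptic vesicles, Camk2b (2.68 ± 0.43, adjusted p = 0.00796), a calcium-dependent kinase, and the calcineurin genes Ppp3ca (3.08 ± 0.35, adjusted p = 0.00171) and Ppp3r1 (2.04 ± 0.32, adjusted p = 0.00703). Rims1 went from 0.2585 to 9.233 CPM in IPN and from 0.5005 to 11.52 in non-IPN. The list median with age was 0.14, against 0.0 over all genes tested. The population by day term was called for 1 of the 20, against 1.3% of all genes tested. It was Gem (3.02 ± 0.58, adjusted p = 0.0212), a small GTPase that holds down calcium current. Gem was at 16.87 CPM in the non-IPN E13.5 library and at most 2.052 in the other 5, and no test of this term without that library, the one rich in hemoglobin, was possible.

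The level of a channel gene in the unamplified pair relative to the amplified libraries moved with the GC content of its transcript. On the log2(CPM + 1) scale the excess of the unamplified pair was largest for 2 GC-rich genes: Cacng7 was at 71.31 CPM unamplified and 1.11 amplified, and Cacnb1 at 51.46 and 1.112. It was below 0 for Cacna2d1, with 40.7% GC (119.8 and 313.5 CPM). Across the 25 channel genes at 10 CPM or more, Spearman's rho between GC and this difference was 0.74, and across 9887 genes of all kinds it was 0.61, as descriptions over genes that share the same 6 libraries. The median difference was 3.07 for the 9 channel genes with 55% GC or more, 0.61 for the 5 under 45%, and 0.36 over the 9887. All these genes were kept for reaching 10 CPM in any library. Some did so only in the unamplified pair, Cacng7 and Cacnb1 among them (at most 2.394 and 2.941 CPM when amplified). The filter thus favors an excess of the unamplified pair, so these values are no independent support for it. Age, cell number and amplification differ together between these libraries and cannot be told apart. The 39 genes summed to 2322 CPM in IPN and 2789 in non-IPN in the unamplified pair, to 857.5 and 412.4 on E13.5, and to 1286 and 1438 on E16.5.

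**Figure D5:**
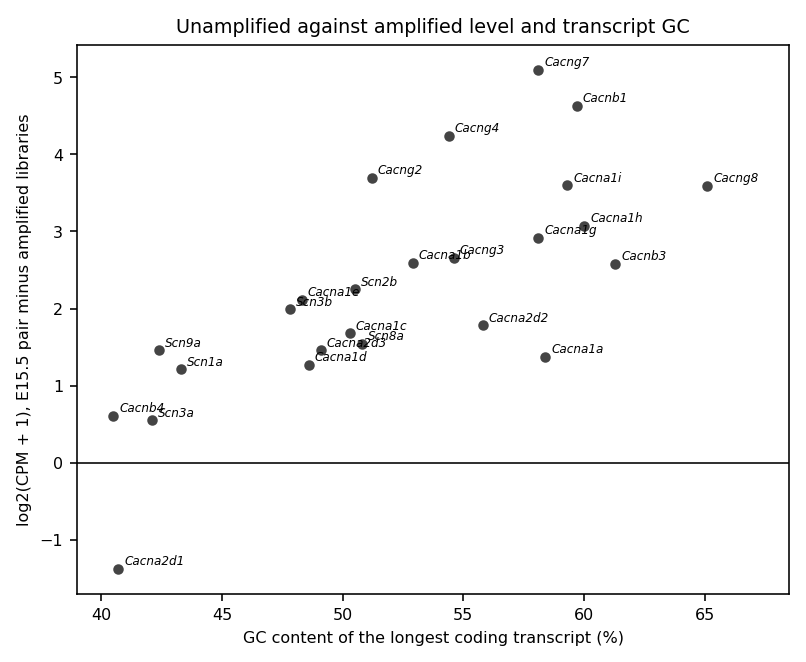
Difference between the unamplified E15.5 pair and the 4 amplified libraries in log2 of mean CPM + 1 (y axis) against the GC content of the longest coding transcript (x axis, %) for the 25 channel genes that reached 10 CPM. Points rise from Cacna2d1 at the lower left to Cacng7 and Cacnb1 at the upper right. Some of the 25, Cacng7 and Cacnb1 among them, reached 10 CPM only in the unamplified pair.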

How the data were processed

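RNA was sequenced from 6 libraries of sorted cortical neurons, 3 per population. The tools named in the submitters' processing notes are TopHat 1.2.0, CASAVA 1.9, edgeR and SAMtools 0.1.18, with build mm9. What each did, which reads were counted, on which strand, and how values were scaled was not given in the sources used here. The deposited values were whole numbers and were treated as a signal scaled by the authors, since their upper quartiles were nearly equal within the E15.5 pair (1502 against 1501) and within the amplified 4 (438 to 444). The count test planned for raw counts was therefore not used. Because the values were scaled, no counting interval was computed.

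Files were joined by symbol, and 6 rows of 3 symbols listed 2 times were dropped, leaving 20367 genes. Differences were fitted with limma 3.58.1 under R 4.3.3, with trend and robust set, on log2(value + 1), with population and age as factors, over the 19561 genes above 0 in a library, with Benjamini-Hochberg adjustment at 0.05. Fold changes on this scale understate those of low genes. The fit had 2 residual degrees of freedom beside a median prior of 8.26, and the model with population by embryonic day 1 beside 14.5. The script was tested on simulated data. Age pairs the libraries, since the labels describe 1 sort that yielded both gates. Errors are standard errors of fitted log2 differences. Lengths, GC content and exon overlaps came from GENCODE M21 and promoters from RefSeq, both on GRCm38, so no coordinate of the files' build is given.

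The members, gene lists and tests were chosen with earlier results of these data known. The rule for named genes took every member, of which 2 are not reported here by name (promoter sequences are not reported here either), with full statistics for those called or at 10 CPM or more in a library, the called partner genes, up to 6 per list, Scn2a1, and Eomes and Dcx. Alternatives were a pseudocount of 10, a filter at a mean of 1 CPM, column totals, median-of-ratios scaling, limma without trend and robust, no age term, and leaving out libraries or age pairs.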

Additional observations from a re-analysis of the deposited data

Results flagged for a closer look

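The population difference of Cacna2d2, an alpha2delta gene, changed with embryonic day: the slope of the log2 ratio of IPN to non-IPN was -0.97 ± 0.19 per day (limma, adjusted p = 0.0212). IPN was slightly above non-IPN on E13.5 (log2 ratio 0.42) and below it on E15.5 (-1.83) and E16.5 (-2.42). The slope was -0.94 with a pseudocount of 10 and no longer passed (adjusted p = 0.143). No other channel gene passed this test on the deposited scaling. Under median-of-ratios scaling Cacna2d1, Scn3b and Scn4a also passed, and on column totals Cacna2d1, Cacna2d4, Scn3b and Scn4a did. Outliers within a group could not be examined with 3 libraries per population.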

How the results depend on the processing

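Over all genes, the population difference gave 664 calls, 192 of them higher in IPN. There were 334 with a pseudocount of 10, 196 on column totals (13 higher and 183 lower), 0 by limma without trend and robust (1946 at an unadjusted p under 0.05), 0 with no age term (676 unadjusted), and 54 to 595 when an age pair was left out. The channel genes called were 3, then 2 with a pseudocount of 10 (Cacna1g and Cacna2d1), where Cacng3 was at adjusted p = 0.0693 by limma. On column totals 1 was called, Cacna1g (adjusted p = 0.0482), while Cacna2d1 and Cacng3 were both at adjusted p = 0.108. The count was 0 without trend and robust (5 unadjusted), 0 with no age term (2 unadjusted) and 0 to 5 without an age pair. With no age term the age pairing of the libraries is dropped.

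The age difference gave 1178 calls (736 rose and 442 fell). There were 452 with a pseudocount of 10, 244 on column totals (183 rose and 61 fell), 0 without trend and robust (3414 unadjusted) and 70 to 2085 when libraries were left out. The channel genes called were 8, then 4, 1, 0 (15 unadjusted) and 1 to 13. The population by day term gave 255 calls, then 9 with a pseudocount of 10, 906 on column totals, 1559 by median-of-ratios scaling and 0 without trend and robust (2321 unadjusted). The channel genes called were 1, then 0 (11 unadjusted), 5, 4 and 0 (5 unadjusted). The cause of these shifts was not tested.

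No call changed sign. Smaller shifts across 0 aside, the estimates of uncalled genes that changed sign by more than their standard error when a library or pair was left out ranged, between populations, from -1.0 to 1.45 for Cacna1s, -1.4 to 0.95 for Cacna2d4, -0.92 to 0.02 for Scn1a, -0.67 to 0.29 for Scn3b, -2.58 to 0.50 for Scn4a and -0.7 to 1.0 for Scn7a. With age they ranged from -0.34 to 0.79 for Cacna1g, -3.15 to 0.89 for Cacna1s, -0.13 to 1.47 for Cacna2d1, -1.29 to 1.25 for Cacna2d2, -2.8 to 1.27 for Cacna2d4, -1.25 to 0.25 for Cacng6, -4.67 to 0.50 for Scn4a and -2.06 to 0.25 for Scn4b. With age, further values of opposite sign within these ranges were 0.53 (Cacna1s), -0.01 (Cacna2d1), 0.84 (Cacna2d2) and 0.73 (Cacna2d4). Depth is unknown, each population has 1 library per age, and the 14 channel genes under 10 CPM in every library gave no call on the deposited scaling with the pseudocount of 1, while Scn4a and Cacna2d4, which are among them, were called for population by day on column totals and Scn4a under median-of-ratios scaling. The fit with age as a factor is the paired analysis, since age pairs the libraries and the labels carry no other replicate numbers, and the fit with no age term is the unpaired one.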
